A study of Mus musculus with 12 samples.

Results

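Rectum from mice in which tamoxifen-activated Cre was carried under both an Lgr5 and a Cdx2 driver was compared with rectum from mice carrying the Cdx2 driver alone. Both groups carried the floxed Apc allele. The both-driver group (genotype Lgr5creER;CDX2creER;APC flox) had 2 RNA-seq libraries and the Cdx2-Apc group (CDX2creER;APC flox) had 3, of 12 libraries in the series. The others are 4 Lgr5-Apc libraries (Lgr5creER;APC flox) and 3 control libraries, which the titles call WT although their genotype field also names CDX2creER;APC flox. All compared animals received intraperitoneal tamoxifen at 25 mg/kg on 5 consecutive days. The treatment field of the control libraries is not filled in. Age and sex are not given in the labels, nor is the time between injection and collection. The genes described are the autosomal genes with at least 1 FPKM (fragments mapped, scaled to transcript length and library size) in at least 2 of the 5 libraries, 15549 of the 27785 genes in the table. The second-highest value of the 5 was 1.001 FPKM for Tmem88, just inside this limit, and 0.9999 FPKM for Ildr2, just outside it. The labels number the libraries of a group without saying that each is a different animal. The spread that the p-values rest on is that between these libraries, and it may be technical.

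Apc is the scaffold of the complex that marks beta-catenin for destruction, and cells without it switch on Wnt target genes in the absence of a Wnt signal. Lgr5 is a receptor for R-spondins and marks the stem cells at the base of intestinal crypts, so an Lgr5 driver acts in those cells and in Lgr5-expressing cells of other tissues, the hair follicle among them. Cdx2 is a homeobox transcription factor of intestinal epithelium, and its promoter elements are used to drive Cre in the epithelium of the distal bowel. The rectal wall holds columnar mucosa, smooth muscle with enteric nerves, and connective tissue; at the anal canal it meets stratified squamous epithelium, hair-bearing skin and striated sphincter muscle.

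None of Apc, Lgr5 and Cdx2 passed the test between the groups. Apc was at 13.5 and 15 FPKM in both-driver libraries 1 and 2 and at 17.6, 15.3 and 17.2 FPKM in Cdx2-Apc libraries 1, 2 and 3 (log2 difference -0.22, SE 0.16, adjusted p = 0.328, limma). Both both-driver values lay below the Cdx2-Apc values, library 2 by little. A value per gene does not show the removal of a floxed exon, so this is no measure of recombination. Lgr5 was at 4.48 and 3.77 FPKM against 2.81, 3.77 and 4.16 FPKM (log2 difference 0.17, SE 0.37, adjusted p = 0.762), with overlapping groups. Cdx2 was at 18.5 and 1.44 FPKM against 15.7, 30.4 and 17.7 FPKM (log2 difference -1.63, SE 1.83, adjusted p = 0.534). Its level in both-driver library 1 lay inside the Cdx2-Apc range and its level in library 2 lay below that range.

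The libraries summed to 577845 and 593974 FPKM (both drivers) and to 451297 to 556772 FPKM (Cdx2-Apc). Short RNAs made up 33.8% and 32.0% of the both-driver totals and 11.98% to 22.6% of the Cdx2-Apc totals. Depth is unknown, since no counts are given. Sex-linked transcripts divided the groups: Xist, transcribed from the inactive X chromosome, was at 215 and 266 FPKM in the both-driver libraries and at 1.12, 0.702 and 0.893 FPKM in the Cdx2-Apc libraries. The Y-linked gene Ddx3y was listed at 0 in both both-driver libraries and was at 13.8, 14 and 15.9 FPKM in the Cdx2-Apc libraries. A difference that goes with sex and one that goes with the second driver cannot be told apart in this comparison. The both-driver libraries correlated with each other at r = 0.913 across genes (Pearson, log2 values), the Cdx2-Apc libraries at 0.941 to 0.963, and libraries of different groups at 0.646 to 0.801. Genes are not independent replicates, and these are descriptions only.

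In the comparison of both drivers with the Cdx2 driver alone, 2013 genes were higher and 1932 lower at an adjusted p below 0.05 (limma on log2(FPKM + 1), Benjamini-Hochberg), so 25.4% of the genes compared were called, 12.9% as higher and 12.4% as lower. The listed genes below are counted over those in the table, filtered or not, and over all 26111 autosomal genes in the table the same calls make up 7.71% higher and 7.4% lower, the shares against which those counts are to be read. The median log2 difference over the 15549 genes was 0.055. List medians below are over the listed genes in the table, for which the median of all autosomal genes was 0.000. Listed genes on the X chromosome remain in the list counts, medians and sums, but could not be called. Of the called genes, 1606 were higher by at least 1 on the log2 scale and 1425 were lower by at least 1. All called genes had groups that did not overlap, as did 34.6% of the genes compared in the higher direction and 31% in the lower. Of all 26111 autosomal genes in the table, 7031 had both both-driver libraries above all Cdx2-Apc libraries and 5985 had both below. The counts of listed genes without overlap are to be read against these. The filter also let in genes that passed it in 1 group only: 980 genes passed only through the both-driver libraries, of which 738 were called higher, and 651 passed only through the Cdx2-Apc libraries, of which 224 were called lower. A gene that passed in that way had to differ, so listed genes are counted over all those in the table.

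The split between higher and lower depended on the libraries and settings. The calls were 51.0% higher as reported, 66.8% higher after short and ribosomal RNAs were removed and each library was rescaled to an equal total (3020 higher, 1498 lower), and 36.9% higher when only genes averaging 5 FPKM or more were kept (961 and 1642). Without both-driver library 1, 274 genes were higher and 723 lower, and without library 2, 56 and 45, each time with the remaining library assumed to vary like those of the other groups. Of the 2013 higher genes, 257 then reached 1 FPKM in fewer than 2 libraries and were not tested in either of these fits. Omitting Cdx2-Apc library 1, 2 or 3 left 1176, 676 or 1093 higher and 1150, 813 or 908 lower. Both-driver library 2 lay further from the Cdx2-Apc group than library 1 for many of these genes. It was the lower of the pair in 71.9% of the genes called lower, against 44.2% of all genes compared, and the higher of the pair in 62.0% of the genes called higher, against 55.3%.

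**Figure D1:**
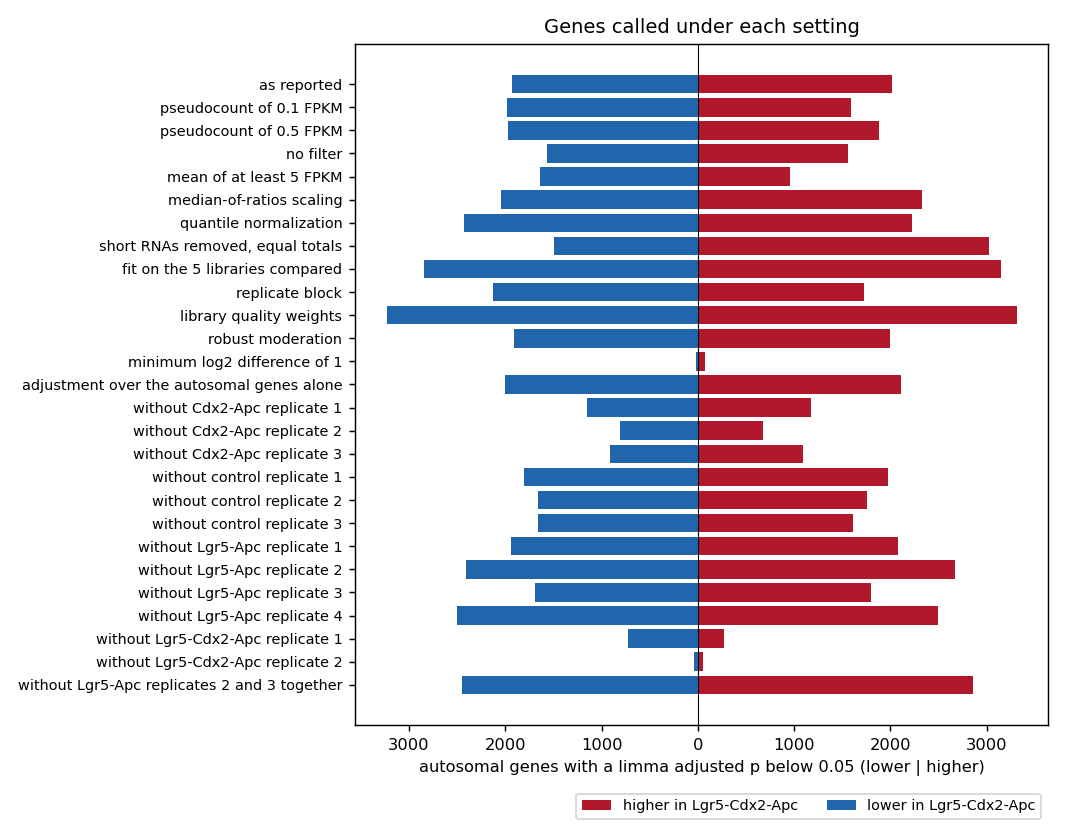
Numbers of autosomal genes called higher (bars to the right) and lower (bars to the left) in the both-driver libraries at a limma adjusted p below 0.05, 1 row a setting. The counts are 2013 higher and 1932 lower as reported and are smallest when both-driver replicate 2 is left out (56 and 45) or when a log2 difference of at least 1 is tested (70 and 18).

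The makeup of the tissue pieces differed by their markers. The summed level of the squamous keratins was 12860 and 22380 FPKM with both drivers and 22.0, 30.7 and 781 FPKM in Cdx2-Apc, and 13 of 17 of them had both both-driver libraries above all Cdx2-Apc libraries. The hair follicle list summed to 279 and 136 FPKM against 9.99, 9.27 and 19.5 FPKM and the skeletal muscle list to 621 and 733 FPKM against 223, 265 and 242 FPKM. Nearly all of the skeletal muscle sum in Cdx2-Apc was a single gene, Eno3, which went the other way and is given below. The mean log2(FPKM + 1) of the skeletal muscle list was 3.91 and 4.21 with both drivers and 0.806, 0.63 and 0.969 in Cdx2-Apc. The columnar list summed to 1591 and 347 FPKM against 6473, 7216 and 8065 FPKM, so the both-driver pieces, labelled rectum, held columnar transcripts at a reduced level beside epidermal ones. Lgr5-Apc library 2 also combined high squamous and low columnar sums, with 28630 FPKM of squamous keratins and 1720 FPKM of columnar genes. No defining columnar or smooth muscle gene was at 0 in any of the 5 libraries. Tissue makeup and genotype cannot be told apart here, and the part of tissue makeup in each result that follows was not tested.

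Smooth muscle genes were lower in the both-driver libraries by wide margins. Of 20 smooth muscle genes in the table, 15 were called lower and 0 higher, and 19 had both both-driver libraries below all Cdx2-Apc libraries; the median log2 difference was -3.02. Actg2, the gamma actin of visceral smooth muscle, was at 8.33 and 3.59 FPKM with both drivers and at 1030, 386 and 419 FPKM with the Cdx2 driver alone (log2 difference -6.40, SE 0.69, adjusted p = 0.000727), a ratio of means of 103 in favour of Cdx2-Apc. Acta2, the vascular and visceral alpha actin, was at 12.3 and 7.11 FPKM against 881, 327 and 356 FPKM (log2 difference -5.49, SE 0.65, adjusted p = 0.00124). Both actins were lower in each both-driver library than in any other library of the series. Cnn1, the actin-binding thin-filament protein calponin, was at 3.3 and 0.657 FPKM against 265, 114 and 112 FPKM (log2 difference -5.82, SE 0.70, adjusted p = 0.00126). Tagln and Myl9, an actin cross-linker and the regulatory light chain of smooth muscle myosin, had log2 differences of -5.70 and -5.30, and Myh11, the smooth muscle myosin heavy chain, -5.48. Myocd, the coactivator of this gene programme, was at 0.163 and 0.0656 FPKM against 6.18, 2.02 and 2.85 FPKM (log2 difference -1.97, SE 0.52, adjusted p = 0.0246). Tropomyosin 2 (Tpm2), smoothelin (Smtn) and the heat shock protein Hspb6 did not pass, with log2 differences of -1.87, -1.39 and -0.11. Flna lies on the X chromosome and could not be called, but it is among the 20 genes and in their median and sum.

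Leaving out both-driver library 1 or 2 left 9 and 5 genes called lower, and leaving out Cdx2-Apc library 1, 2 or 3 left 12, 15 and 14. The summed level of the list was 367 and 329 FPKM with both drivers and 6561, 2444 and 2709 FPKM in Cdx2-Apc, where library 1 was the highest. In bulk tissue, fewer cells of a type and less RNA per cell cannot be told apart, for this list and for all those that follow.

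The promoters of Acta2 and Cnn1, the genes of this list with the smallest p that have an entry in the RefSeq table (GRCm38.p6), are shown because serum response factor acts on this programme through the CArG box. They run from 250 bases before to 50 bases after the start, 5′ to 3′ on the gene's strand, at chr19:34255324-34255623 (minus strand) and chr9:22099003-22099302 (plus strand). The CArG box, the MEF2 site, the AP-1 site TGANTCA, the CDX sites TTTATGG and TTTATTG and the HNF4 sites CAAAGTCCA and CAAAGTTCA were searched on both strands, and matches are in capitals. Neither window holds one of these exact motifs. The CArG box was searched as CCWWWWWWGG, with W for A or T. The Acta2 window holds ccctatatgg and ccttgtttgg, each with a single other base at a W, so the search did not count them. Lack of an exact match does not show lack of a binding site.
Acta2: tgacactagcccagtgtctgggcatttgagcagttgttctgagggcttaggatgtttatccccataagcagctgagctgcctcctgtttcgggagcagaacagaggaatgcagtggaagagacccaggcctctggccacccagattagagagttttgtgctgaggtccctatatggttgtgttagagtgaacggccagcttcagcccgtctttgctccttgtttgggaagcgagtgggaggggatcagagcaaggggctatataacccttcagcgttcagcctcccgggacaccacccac
Cnn1: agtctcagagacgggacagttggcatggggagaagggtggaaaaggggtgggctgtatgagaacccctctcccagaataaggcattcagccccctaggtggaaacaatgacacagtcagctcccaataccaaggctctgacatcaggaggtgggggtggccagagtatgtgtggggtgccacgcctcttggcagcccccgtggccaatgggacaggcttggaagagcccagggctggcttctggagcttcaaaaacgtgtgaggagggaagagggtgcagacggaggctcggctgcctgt

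Nerve genes of the bowel wall were also low. Of 21 enteric neuron genes in the table, 8 were called lower and none higher, 11 of the listed genes having passed the filter only through the Cdx2-Apc libraries. Vip, the relaxant neuropeptide of inhibitory motor neurons, was at 0.131 and 0.211 FPKM against 25.9, 12.7 and 8.96 FPKM (log2 difference -3.72, SE 0.76, adjusted p = 0.0103). Snap25, a component of the synaptic vesicle fusion machinery, was at 0.0856 and 0.0475 FPKM against 7.91, 5.72 and 3.78 FPKM (log2 difference -2.63, SE 0.66, adjusted p = 0.0209), and Hand2, a transcription factor of enteric neurons, was at 0.181 and 0.124 FPKM against 8.7, 3.88 and 3.67 FPKM (adjusted p = 0.0221). Each of these genes was lower in both both-driver libraries than in every Cdx2-Apc library. Nos1 and Ret, the neuronal nitric oxide synthase and the receptor for glial-derived neurotrophic factors, did not pass, at 1.26 and 1.94 against 5.76, 3.43 and 2.35 FPKM and 1 and 0.811 against 4.27, 2.23 and 2.1 FPKM. No neuron gene was called once either both-driver library was left out (0 and 0), and 1, 1 and 3 were called without Cdx2-Apc library 1, 2 or 3. Smooth muscle genes were lower in the same libraries, with the sums given above, and their part in the nerve result was not tested.

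Of 5 genes of interstitial cells of Cajal, the pacemaker cells of gut muscle, Gpr20 was lower (0.53 and 0.193 against 3.92, 5.17 and 4.28 FPKM, adjusted p = 0.0295), and Prkcq, a protein kinase C that T cells also express, was higher (2.25 and 2.49 against 0.664, 0.149 and 0.418 FPKM, adjusted p = 0.0101). Kit and Ano1, the defining receptor and chloride channel of these cells, did not pass (adjusted p = 0.424 and 0.137). In the list of 14 glia and Schwann cell genes, Ncam1 and Pmp22 were lower (log2 differences -1.43 and -1.93), and the glial markers Sox10 and Mbp overlapped between the groups. No gene of these lists was called when either both-driver library was left out, and Prkcq was then not tested.

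Absorptive genes of the colonocyte were lower with both drivers. Of 31 colonocyte genes, 14 were called lower and 0 higher, with a median log2 difference of -2.66. Car2, a carbonic anhydrase that supplies bicarbonate and protons for ion exchange, was at 59.3 and 27 FPKM in the both-driver libraries and at 809, 828 and 761 FPKM in Cdx2-Apc (log2 difference -4.28, SE 0.41, adjusted p = 0.000378), a ratio of means of 18.5. Slc26a3, the apical chloride-bicarbonate exchanger, was at 51.7 and 4.54 FPKM against 428, 470.1 and 425 FPKM (log2 difference -4.69, SE 0.88, adjusted p = 0.00783). Aqp8, a water channel of surface colonocytes, was at 33.5 and 1.39 FPKM against 229, 350 and 309 FPKM (log2 difference -5.01, SE 1.06, adjusted p = 0.0116). In all 3 genes the both-driver libraries lay below every Cdx2-Apc library, and library 2 was the lower of the pair. Saa1, an acute-phase protein, and Hsd11b2, which inactivates glucocorticoids in aldosterone target cells, had log2 differences of -4.78 and -4.82. Sycn, Plac8, Muc3, Car4 and Lypd8 were lower as well, with log2 differences from -5.73 to -3.82.

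Several colonocyte genes did not follow. Scnn1b and Scnn1g, subunits of the epithelial sodium channel, were at 3.9 and 3.25 against 2.56, 2.75 and 4.88 FPKM and 3.49 and 2.9 against 2.58, 1.28 and 4.92 FPKM, with adjusted p of 0.876 and 0.898, while Scnn1a was lower (log2 difference -1.35, adjusted p = 0.0234). Tmigd1, an adhesion protein of the brush border, was at 20.9 and 4.13 FPKM against 1.23, 4.62 and 2.87 FPKM, and Slc51a, a subunit of the basolateral bile acid exporter, at 8.59 and 0.689 FPKM against 0.243, 1.07 and 0.91 FPKM; only library 1 stood above the Cdx2-Apc range and neither gene passed (adjusted p = 0.435 and 0.601). The count of lower colonocyte genes rested on library 2. The median log2 difference was -3.946 when library 1 was left out and -1.635 when library 2 was left out. Without Cdx2-Apc library 1, 2 or 3, 13, 9 and 10 were called lower.

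The promoters of Saa1 (chr7:46742931-46743230, minus strand) and Slc26a3 (chr12:31437969-31438268, plus strand) are given as those of the called colonocyte genes with the smallest p and an entry in the same table, since HNF4 and CDX factors act on enterocyte genes. Neither holds an exact HNF4 or CDX motif, nor one of the other 3 motifs. The Slc26a3 window holds caaaggtca, which differs from the HNF4 site CAAAGTTCA at a single base, so the search did not count it. Other near matches were not searched for.
Saa1: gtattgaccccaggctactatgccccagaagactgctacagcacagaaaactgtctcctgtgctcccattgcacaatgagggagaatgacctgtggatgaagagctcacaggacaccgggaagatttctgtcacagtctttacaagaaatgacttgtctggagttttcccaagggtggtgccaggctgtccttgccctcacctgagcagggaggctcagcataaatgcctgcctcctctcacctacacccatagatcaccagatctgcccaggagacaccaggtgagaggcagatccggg
Slc26a3: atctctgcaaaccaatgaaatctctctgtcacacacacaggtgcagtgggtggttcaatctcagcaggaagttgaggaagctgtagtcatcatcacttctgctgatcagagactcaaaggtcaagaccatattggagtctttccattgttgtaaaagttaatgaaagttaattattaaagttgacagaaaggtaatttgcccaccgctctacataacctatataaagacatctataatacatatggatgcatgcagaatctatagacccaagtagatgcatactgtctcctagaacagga

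Genes shared by all columnar cells of the gut were lower with both drivers. Of 16 columnar genes 14 were called lower, with a median log2 difference of -3.33. Krt8, the type II keratin of simple epithelia, was at 167 and 20.6 FPKM against 942, 974 and 1069 FPKM (log2 difference -4.05, SE 0.82, adjusted p = 0.0103), and its partner Krt19 at 234 and 31.9 FPKM against 1474, 1461 and 1733 FPKM (log2 difference -4.14, SE 0.79, adjusted p = 0.00866). Epcam, an adhesion protein of simple epithelia, was at 174 and 65.4 FPKM against 516, 668 and 650.3 FPKM (log2 difference -2.50, SE 0.61, adjusted p = 0.0187). The groups did not overlap for these 3 genes, and both-driver library 2 was the lowest of the 5 libraries for each. Cldn4, which squamous epithelia also express, was at 45.1 and 32.8 FPKM against 13.6, 30.1 and 30 FPKM and did not pass (adjusted p = 0.329). Without both-driver library 1 or 2, 13 and 0 columnar genes were called lower, and without Cdx2-Apc library 1, 2 or 3, 11, 4 and 7.

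Junction genes were called in both directions. Among 17 tight junction genes 7 were lower and 1 was higher. Cldn8 and Ocln, a sealing claudin of the distal colon and occludin, had log2 differences of -2.24 and -1.53 (adjusted p = 0.0121 and 0.0136). Cldn1, the main barrier claudin of epidermis, was at 91.4 and 123 FPKM against 1.04, 0.498 and 5.16 FPKM (log2 difference 5.33, SE 1.47, adjusted p = 0.0284). Among 15 desmosome genes, Dsg2 and Pkp2, the desmoglein and plakophilin of simple epithelia, were lower (log2 differences -1.88 and -2.54), and Dsg1a, the desmoglein of upper epidermis, was higher at 129 and 202 FPKM against 0.032, 0.0938 and 2.38 FPKM (log2 difference 6.70, SE 1.60, adjusted p = 0.0174). Dsp, Perp and Pkp3 were also higher, with log2 differences of 2.42, 3.12 and 1.89. No tight junction gene was called lower and none higher without library 2, and 5 were called lower without library 1. Desmosome genes called lower numbered 2 and 0 without library 1 or 2, and those called higher 0 and 0.

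Most transcription factors of intestinal identity were lower, and Cdx2 itself did not pass. Of 20 factors, 13 were called lower and none higher, with a median log2 difference of -2.07. Hnf4a, a nuclear receptor that maintains enterocyte genes, was at 45.6 and 3.67 FPKM against 139.5, 183 and 166 FPKM (log2 difference -3.46, SE 0.89, adjusted p = 0.0223). Cdx1, the paralog of Cdx2, was at 18.5 and 2.15 FPKM against 111, 129 and 129 FPKM (log2 difference -3.98, SE 0.83, adjusted p = 0.0114). In library 1 both genes stood below every Cdx2-Apc library although Cdx2 did not, and in library 2 they were lower still. The forkhead factors Foxa2 and Foxa1 had log2 differences of -3.27 and -2.18 (adjusted p = 0.00528 and 0.00528). Klf5, a factor of proliferating epithelium that squamous cells also express, was at 127 and 113 FPKM against 269.9, 252 and 319 FPKM (log2 difference -1.21, SE 0.22, adjusted p = 0.00668). Isx, a homeobox gene that limits carotenoid uptake, was at 14.5 and 1.21 FPKM against 1.5, 2.67 and 1.6 FPKM and did not pass. Once both-driver library 1 or 2 was left out, 10 and 0 factors were called lower, and without Cdx2-Apc library 1, 2 or 3, 10, 6 and 8.

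**Figure D2:**
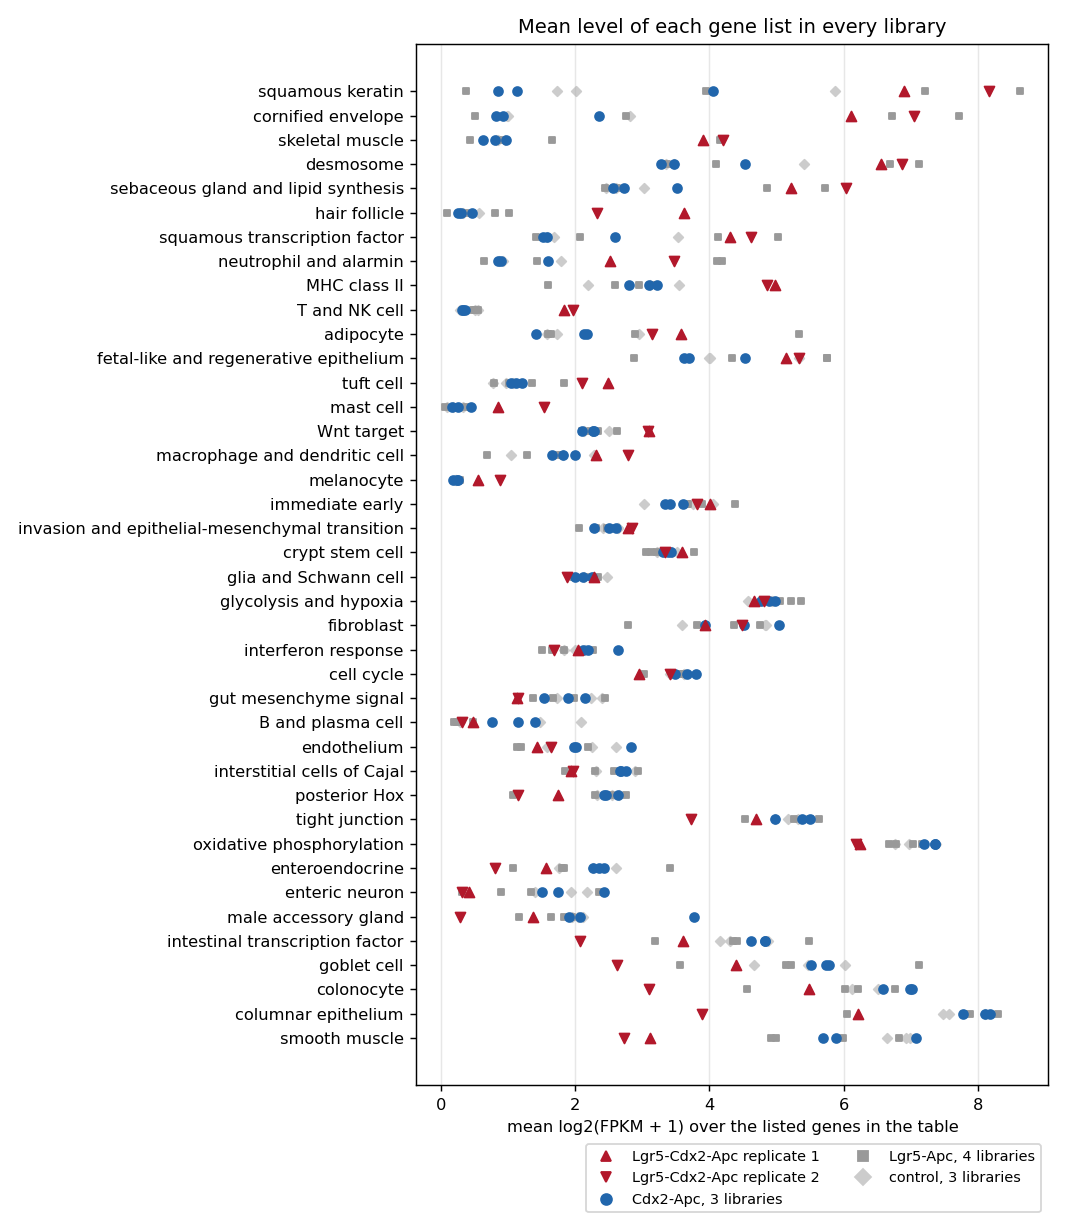
Mean log2(FPKM + 1) of the listed genes in the table (x axis) for each gene list (rows), 1 symbol for each of the 12 libraries by genotype. The both-driver libraries (triangles) are low for smooth muscle (3.11 and 2.73, against 5.69 to 7.09 in Cdx2-Apc) and high for squamous keratins (6.90 and 8.17, against 0.855 to 4.06), and Lgr5-Apc replicate 2 is also high for squamous keratins (8.62) and skeletal muscle (4.16).

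Secretory genes showed a divided pattern. Of 22 goblet cell genes 8 were called lower and none higher. Spink4 and Tff3, secreted peptides of goblet cells, were at 44 and 17.9 FPKM against 550.5, 640.5 and 649 FPKM (log2 difference -4.39, SE 0.89, adjusted p = 0.0101) and at 346 and 37.8 FPKM against 1519, 1623 and 2140 FPKM (log2 difference -3.91, SE 0.98, adjusted p = 0.0205). Agr2, the disulfide isomerase that folds mucins, was at 60.4 and 18.5 FPKM against 478, 526 and 487 FPKM (log2 difference -3.84, SE 1.09, adjusted p = 0.031). These 3 genes separated the groups, but Muc2 and Fcgbp did not. Clca1, another gene of the list, was called lower. Zg16 did not pass, though its log2 difference stayed negative in every alternative setting (-5.755 to -1.899). Muc2, the gel-forming mucin of the colon, was at 414 and 45.8 FPKM against 286, 362 and 373 FPKM (log2 difference -1.28, SE 1.81, adjusted p = 0.627), so library 1 was above and library 2 below the Cdx2-Apc range. Fcgbp, a protein bound to that gel, was at 585 and 352 FPKM against 335, 371 and 531 FPKM (adjusted p = 0.866). The goblet calls rested on library 2 as well. Over the goblet genes past the filter, the median log2 difference was -3.303 without library 1 and -1.489 without library 2. Without Cdx2-Apc library 1, 2 or 3, 5, 3 and 4 goblet genes were called lower.

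Of 23 enteroendocrine genes 4 were called lower. Insl5, a hormone of distal L cells, was at 4.94 and 0.163 FPKM against 87.5, 88.8 and 67.2 FPKM (log2 difference -4.96, SE 1.03, adjusted p = 0.0111), and Pyy, the satiety peptide of the same cells, at 64.3 and 10.3 FPKM against 186, 161 and 212 FPKM (log2 difference -2.78, SE 0.86, adjusted p = 0.0411). Sct, encoding secretin, was at 10 and 1.66 FPKM against 4.07, 3.19 and 2.51 FPKM, with library 1 the highest and library 2 the lowest of the 5, and did not pass. Only 2 and 0 enteroendocrine genes were called without both-driver library 1 or 2.

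Some genes used as tuft cell markers were higher. Of 14 such genes 6 were called higher and none lower, with a median log2 difference of 0.69. Pou2f3, the factor that specifies tuft cells and is also expressed in differentiating epidermis, was at 59.2 and 53.3 FPKM against 0.335, 0.223 and 1.91 FPKM (log2 difference 5.09, SE 1.00, adjusted p = 0.00952). Alox5 and Ptgs1, enzymes of leukotriene and prostaglandin synthesis, were at 7.79 and 5.88 FPKM against 0.915, 0.54 and 0.708 FPKM (log2 difference 2.18, SE 0.23, adjusted p = 0.000702) and at 56.1 and 63 FPKM against 15.7, 6.92 and 9.95 FPKM (log2 difference 2.42, SE 0.42, adjusted p = 0.00589). Il17rb, Ltc4s and Plcg2 completed the 6. Other markers did not pass. The taste channel Trpm5 was at 1.05 and 0.0589 FPKM against 0.475, 1.1 and 0.531 FPKM, with overlapping groups. The kinase Dclk1 was at 5.67 and 6.41 FPKM against 5.36, 3.68 and 2.45 FPKM, without overlap. Pou2f3 was also at 21.1 FPKM in Lgr5-Apc library 2, which is rich in squamous transcripts. Once both-driver library 1 or 2 was left out, 2 and 1 were called higher.

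The crypt stem cell list held 1 gene higher and 1 lower of 16. Cd44, a hyaluronan receptor that is a Wnt target in crypts and is abundant in basal squamous cells, was at 82.4 and 145 FPKM against 10, 8.57 and 18.1 FPKM (log2 difference 3.13, SE 0.89, adjusted p = 0.0308). Ephb2, the ephrin receptor that positions crypt cells, was at 3.71 and 1.81 FPKM against 14.1, 17.1 and 17.8 FPKM (log2 difference -2.25, SE 0.47, adjusted p = 0.0112). Ascl2, a factor of Lgr5-positive stem cells, was at 5.74 and 3.34 FPKM against 5.99, 7.45 and 5.51 FPKM (adjusted p = 0.292), and its groups overlapped. Smoc2, another stem cell marker, was at 46.6 and 37.2 FPKM against 13.9, 15.4 and 18.1 FPKM without overlap, but its adjusted p was 0.0627. Cd44 was at 120 FPKM in Lgr5-Apc library 2 as well. Without both-driver library 1 the list held 0 genes higher and 1 lower, and without library 2 it held 0 and 0.

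Wnt target genes moved in part. Of 22 listed genes 7 were called higher and none lower, with a median log2 difference of 0.68. Tnfrsf19 (Troy), a receptor of crypt and hair follicle stem cells, was at 56 and 57.6 FPKM against 1.64, 0.744 and 3.62 FPKM (log2 difference 4.38, SE 0.68, adjusted p = 0.00372). Lgr6, the paralog of Lgr5 found in skin stem cells, was at 16.3 and 23.9 FPKM against 0.0277, 0.117 and 0.75 FPKM (log2 difference 4.04, SE 0.64, adjusted p = 0.00419), and Wif1, a secreted Wnt inhibitor, at 3.89 and 2.26 FPKM against 0.368, 0.399 and 0.204 FPKM (log2 difference 1.60, SE 0.34, adjusted p = 0.0115). All 3 stood above every Cdx2-Apc library in both both-driver libraries. Lgr6 and Wif1 are the 2 genes of the list that passed the filter only through the both-driver libraries. They had to be high there to be tested, so their direction was fixed by the filter. Apcdd1, Fzd7, Tcf7 and Znrf3 completed the 7, with log2 differences from 0.81 to 3.84. Axin2, the feedback inhibitor used most often as a readout of the pathway, was at 20.5 and 14.6 FPKM against 12.1, 12.7 and 12.3 FPKM, above the Cdx2-Apc range in both libraries, and did not pass (log2 difference 0.45, SE 0.27, adjusted p = 0.242). Nkd1, Rnf43, Ccnd1 and Sox4 did not pass, with log2 differences of -0.98, -0.14, -0.22 and -0.05. The count of higher Wnt targets was 2 and 0 without both-driver library 1 or 2 and 4, 3 and 4 without Cdx2-Apc library 1, 2 or 3. Hair follicle and squamous genes, given below, were high in the same libraries, and their part in the Wnt result was not tested.

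Hox genes of the posterior paralog groups record position along the body axis. Of 16 such genes 5 were lower and 2 higher. Hoxb13, expressed in the most distal gut, was at 10.4 and 0.666 FPKM against 123, 148 and 154 FPKM (log2 difference -5.03, SE 1.49, adjusted p = 0.0358). Hoxa13 was at 3.29 and 0.242 FPKM against 25.6, 32.2 and 30.9 FPKM (log2 difference -3.72, SE 0.94, adjusted p = 0.0215) and Hoxa10 at 3.66 and 2.53 FPKM against 16.8, 18.8 and 18.2 FPKM (log2 difference -2.22, SE 0.51, adjusted p = 0.0152). Hoxd10 and Hoxd11 were lower too (log2 differences -2.28 and -2.06), and Hoxd13 at 4.08 and 0.787 FPKM against 52.6, 48.5 and 61.4 FPKM just missed the threshold (adjusted p = 0.0508). The genes that were higher belong to another cluster: Hoxc13, a regulator of hair keratins, was at 3.89 and 2.77 FPKM against 0, 0.024 and 0.0337 FPKM (log2 difference 2.07, SE 0.30, adjusted p = 0.0027), and Hoxc9 at 1.49 and 1.65 FPKM against 0, 0 and 0.0998 FPKM (log2 difference 1.32, SE 0.28, adjusted p = 0.0117). Both passed the filter only through the both-driver libraries. Lgr5-Apc library 4 also had little Hoxb13 (0.924 FPKM) and Hoxd13 (0.395 FPKM). With both-driver library 1 left out, 1 gene was lower and 1 higher, and without library 2, 0 and 1.

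**Figure D3:**
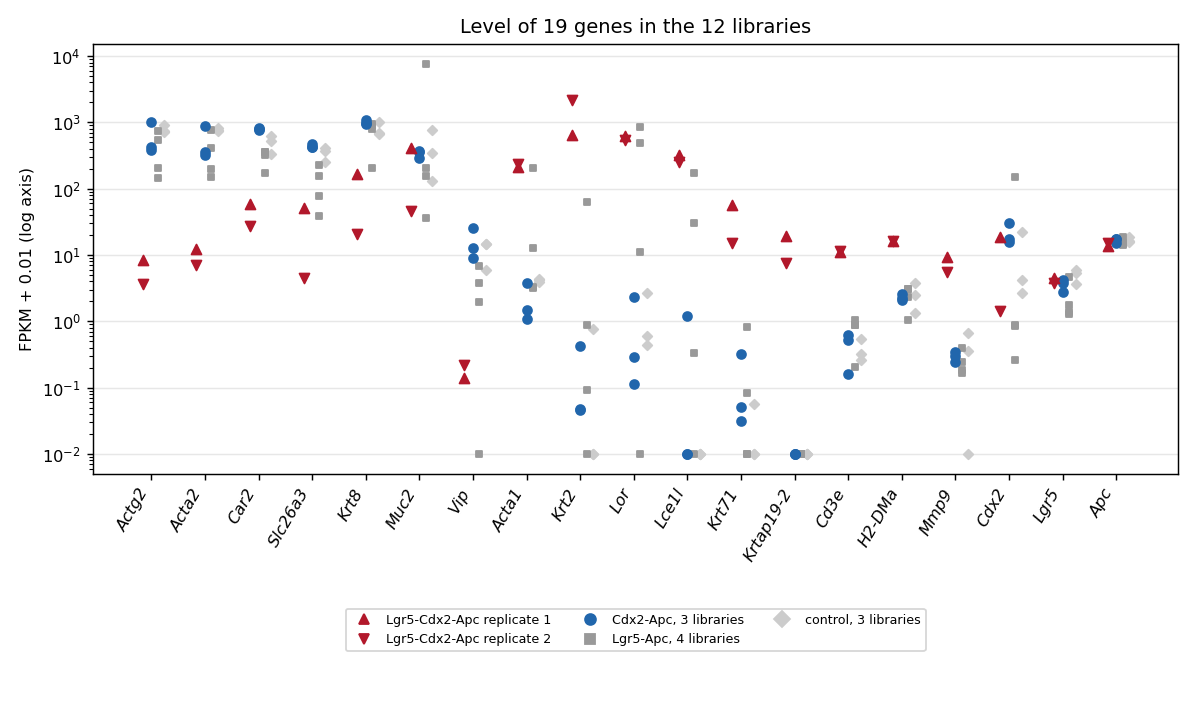
Level of 19 genes (x axis) in each of the 12 libraries as FPKM + 0.01 on a log axis (y axis), 1 symbol a library by group. The both-driver libraries lie below all Cdx2-Apc libraries for Actg2 and Car2 and above them for Krt71 and Cd3e, and they lie on either side of them for Muc2 (414 and 45.8 FPKM).

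Genes of the cornified envelope, the cross-linked protein shell of dead epidermal cells, were higher by wide margins. Of 23 listed genes 13 were called higher and 1, Sprr2a1, lower, with a median log2 difference of 6.51. Lor (loricrin), the main envelope protein of epidermis, was at 616 and 546 FPKM against 0.104, 0.278 and 2.35 FPKM (log2 difference 8.44, SE 2.31, adjusted p = 0.0278). Flg2, a filaggrin family protein, was at 226 and 134 FPKM against 0.0247, 0.0255 and 1.44 FPKM (adjusted p = 0.0139). Lce1l, a late cornified envelope gene, was at 324 and 256 FPKM against 0, 0 and 1.22 FPKM (log2 difference 7.79, SE 1.80, adjusted p = 0.0157). Among the 3 Cdx2-Apc libraries, library 3 had the highest level of each. Of 21 Lce genes listed by the authors, 16 passed the filter, 7 of them only through the both-driver libraries, and 15 were called higher; those genes lie between positions 92620081 and 93019060 of chromosome 3 and are close paralogs, so reads could be split between them and single values are uncertain. Lgr5-Apc libraries 2 and 3 were also high, with 867 and 484 FPKM of Lor. In this list 0 and 0 genes were called higher without both-driver library 1 or 2, and 2, 1 and 7 without Cdx2-Apc library 1, 2 or 3.

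The promoters of Flg2 (chr3:93197023-93197322, plus strand) and Lce1l (chr3:92851237-92851536, minus strand), the called envelope genes with the smallest p, are shown because AP-1 acts on many genes of this locus. The Flg2 window holds 1 AP-1 site, in capitals, that begins 69 bases before the start, and the Lce1l window holds none of the 5 motifs. Of the 14 called envelope genes, each with a window, 4 held the AP-1 motif (28.6%), against 7.93% of all 27025 promoters of the table.
Flg2: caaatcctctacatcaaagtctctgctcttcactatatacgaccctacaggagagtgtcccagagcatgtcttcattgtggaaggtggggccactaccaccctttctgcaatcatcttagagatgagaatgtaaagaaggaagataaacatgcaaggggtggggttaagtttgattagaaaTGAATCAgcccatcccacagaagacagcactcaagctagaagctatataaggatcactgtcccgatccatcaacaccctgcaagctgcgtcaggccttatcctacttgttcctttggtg
Lce1l: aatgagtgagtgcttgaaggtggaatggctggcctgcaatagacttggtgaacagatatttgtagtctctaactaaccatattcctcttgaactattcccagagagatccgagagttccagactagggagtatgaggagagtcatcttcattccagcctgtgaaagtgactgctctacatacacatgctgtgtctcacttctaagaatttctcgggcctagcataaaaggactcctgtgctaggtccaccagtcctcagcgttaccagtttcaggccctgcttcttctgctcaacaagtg

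Keratins of stratified epithelium had high levels in the both-driver libraries, but few were called. Of 17 squamous keratins 3 were called higher and none lower, although 13 had both both-driver libraries above all Cdx2-Apc libraries and the median log2 difference was 5.79. Krt2, a keratin of the upper layers of epidermis, was at 641 and 2193 FPKM against 0.0356, 0.0371 and 0.419 FPKM (log2 difference 10.01, SE 1.47, adjusted p = 0.00292), and it was at 62.7 FPKM or less in the Lgr5-Apc libraries. Krt5 and Krt14, the basal keratin pair, were at 2790 and 2881 FPKM against 1.06, 5.53 and 174 FPKM (adjusted p = 0.0861) and 2137 and 2807 FPKM against 2, 5.87 and 173 FPKM (adjusted p = 0.0944). The groups did not overlap for either gene, Cdx2-Apc library 3 stood far above libraries 1 and 2, and neither gene passed. The squamous keratins called higher numbered 1 and 0 without both-driver library 1 or 2 and 1, 1 and 1 without Cdx2-Apc library 1, 2 or 3.

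Keratins of moist, mucosal squamous lining were high in only 1 of the both-driver libraries. Krt4 was at 1.44 and 494 FPKM against 0.867, 2.48 and 83.2 FPKM and Krt13, its partner, at 1.28 and 118 FPKM against 1.25, 1.67 and 65.9 FPKM, so both-driver library 1 lay with the low Cdx2-Apc libraries and library 2 lay above all 3 (adjusted p = 0.691 and 0.819). Lgr5-Apc libraries 2 and 3 held 7351 and 3597 FPKM of Krt4. Sprr3 and Rptn, envelope proteins of mucosal lining and of the hair follicle opening, were at 0 and 4.65 FPKM against 0.152, 0.118 and 8.62 FPKM and at 4.83 and 129 FPKM against 0.171, 0.203 and 4.55 FPKM and did not pass. Both-driver library 1 thus held epidermal keratins and loricrin with Krt4 and Krt13 near the Cdx2-Apc level, whereas library 2 held both kinds.

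Transcription factors of squamous epithelium were higher in part. Of 19 factors 7 were called higher and none lower, with a median log2 difference of 2.51. Tfap2b and Gata3, factors of epidermal and hair lineages, were at 21.2 and 18.9 FPKM against 0.0494, 0.0383 and 1.28 FPKM (log2 difference 3.95, SE 0.95, adjusted p = 0.018) and at 107 and 74.5 FPKM against 0.11, 0.325 and 5.3 FPKM (log2 difference 5.42, adjusted p = 0.0288). Foxn1, which drives hair keratinization, was at 5.08 and 5.51 FPKM against 0.32, 0.388 and 0.83 FPKM (log2 difference 2.07, SE 0.57, adjusted p = 0.0287). Trp63, the master regulator of stratified epithelium, was at 142 and 175 FPKM against 0.241, 0.335 and 13.2 FPKM without overlap, but its adjusted p was 0.0752. Sox2 and Pitx1, which mark oral and other foregut-type squamous lining, overlapped, at 0.265 and 1.15 against 0.25, 0.213 and 2.46 FPKM and 3.05 and 11.8 against 6.57, 3.09 and 8.16 FPKM. No factor was called without both-driver library 1 or without library 2 (0 and 0).

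Hair follicle genes were high in the both-driver libraries, where their mean log2(FPKM + 1) was 3.62 and 2.33, and at or below 1.02 in the other 10 libraries. Of 16 listed genes 12 were called higher and none lower, 11 of the list having passed the filter only through the both-driver libraries, and 16 had both libraries above all Cdx2-Apc libraries. Krt71, a keratin of the inner root sheath, was at 57.1 and 15.3 FPKM against 0.042, 0.0219 and 0.312 FPKM (log2 difference 4.78, SE 0.45, adjusted p = 0.000351) and at 0.823 FPKM or less in the Lgr5-Apc libraries. Krt27, its type I partner, was at 17.9 and 6.73 FPKM against 0.0576, 0.0556 and 0 FPKM (log2 difference 3.54, SE 0.31, adjusted p = 0.000245), and Tchh, the trichohyalin that hardens the sheath, at 37.9 and 8.68 FPKM against 0.0813, 0.0643 and 0.365 FPKM (log2 difference 4.06, SE 0.51, adjusted p = 0.00144). Library 1 was the higher of the pair for all 3. Lhx2, a factor of hair follicle stem cells, was at 14.6 and 8.45 FPKM against 0.0695, 0.0314 and 0.339 FPKM (log2 difference 3.42, SE 0.60, adjusted p = 0.00657). The hair shaft keratins Krt31 and Krt33a did not pass the filter because library 2 held under 1 FPKM, at 21.3 and 0.623 FPKM against 0, 0 and 0 FPKM and 25.4 and 0.9 FPKM against 0.0585, 0 and 0 FPKM. Without both-driver library 1 or 2, 7 of the 12 called genes did not reach 1 FPKM in 2 libraries and were not tested, and of the other 5, 2 and 3 were called. The count was 12, 12 and 12 without Cdx2-Apc library 1, 2 or 3.

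Other skin structures moved with them. Of 17 sebaceous and lipid synthesis genes 7 were called higher and 1 lower. Mc5r, the melanocortin receptor of sebaceous glands, was at 8.71 and 11.6 FPKM against 0, 0 and 0.178 FPKM (log2 difference 3.39, SE 0.72, adjusted p = 0.0117), and Scd1, a fatty acid desaturase, at 603 and 973 FPKM against 24.3, 18.1 and 42.1 FPKM (log2 difference 4.80, SE 1.18, adjusted p = 0.0192). Plin2, a lipid droplet protein, was lower (log2 difference -0.97). Dct, a melanin synthesis enzyme of melanocytes, was at 1.35 and 1.68 FPKM against 0.0801, 0.0708 and 0.226 FPKM (log2 difference 1.16, SE 0.20, adjusted p = 0.00545), and Mitf, their master factor, at 5.54 and 4.32 FPKM against 2.48, 0.749 and 1.1 FPKM (log2 difference 1.33, SE 0.33, adjusted p = 0.0195), the only genes of 9 in that list to be called. No sebaceous or melanocyte gene was called higher when either both-driver library was left out, and Dct was then not tested.

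Skeletal muscle genes were higher while smooth muscle genes were lower. Of 21 skeletal muscle genes 17 were called higher and 1 lower, 14 of the list having passed the filter only through the both-driver libraries, with a median log2 difference of 3.56. Acta1, skeletal alpha actin, was at 211 and 232 FPKM against 1.5, 1.09 and 3.74 FPKM (log2 difference 6.26, SE 1.33, adjusted p = 0.0117). Ttn (titin), the spring of the sarcomere, was at 31.1 and 35.8 FPKM against 0.0816, 0.0374 and 0.203 FPKM (log2 difference 4.96, SE 1.08, adjusted p = 0.0131), and Neb (nebulin), the ruler of the thin filament, at 10 and 14 FPKM against 0.166, 0.0367 and 0.0831 FPKM (log2 difference 3.56, SE 0.75, adjusted p = 0.0117). The both-driver libraries were close to each other and far above the 3 Cdx2-Apc libraries. Lgr5-Apc library 2 was close to them, with 205 FPKM of Acta1 and 25.9 FPKM of Ttn, in a library without the Cdx2 driver. Eno3, the muscle enolase, went the other way at 34.6 and 29.5 FPKM against 206, 259.6 and 225 FPKM (log2 difference -2.81, SE 0.79, adjusted p = 0.03). No gene of this list was called when either both-driver library was left out, and 11, 7 and 12 were called higher without Cdx2-Apc library 1, 2 or 3. Of the adipocyte genes 12 of 14 had both both-driver libraries above all Cdx2-Apc libraries, as did 7031 of the 26111 autosomal genes in the table. None of the adipocyte genes was called higher and Pnpla2, a triglyceride lipase, was called lower.

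The promoters of Acta1 (chr8:123894726-123895025, minus strand) and Ttn (chr2:76982498-76982797, minus strand) are those of the called skeletal muscle genes with the smallest p and a table entry, shown because serum response factor and MEF2 act on sarcomere genes. The Acta1 window holds 1 CArG box that begins 73 bases before the start and the Ttn window 1 MEF2 site that begins 166 bases before it, both in capitals. Of 14 called skeletal muscle genes with a window 3 held a MEF2 site (21.4%), against 3.26% of all promoters of the table, and 1 held a CArG box (7.14%), against 1.57%. These are matches to letters, not shown binding sites.
Acta1: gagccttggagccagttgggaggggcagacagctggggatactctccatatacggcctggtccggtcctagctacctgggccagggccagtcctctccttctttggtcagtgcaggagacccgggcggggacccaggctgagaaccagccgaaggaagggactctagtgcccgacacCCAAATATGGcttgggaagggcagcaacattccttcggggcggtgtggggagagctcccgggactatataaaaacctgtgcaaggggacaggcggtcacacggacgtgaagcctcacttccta
Ttn: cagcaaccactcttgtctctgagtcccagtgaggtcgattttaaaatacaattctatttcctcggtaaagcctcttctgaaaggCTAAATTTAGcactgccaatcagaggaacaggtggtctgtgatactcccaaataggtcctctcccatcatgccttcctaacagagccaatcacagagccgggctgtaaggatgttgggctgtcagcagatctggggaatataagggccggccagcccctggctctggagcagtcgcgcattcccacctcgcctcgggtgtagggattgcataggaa

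**Figure D4:**
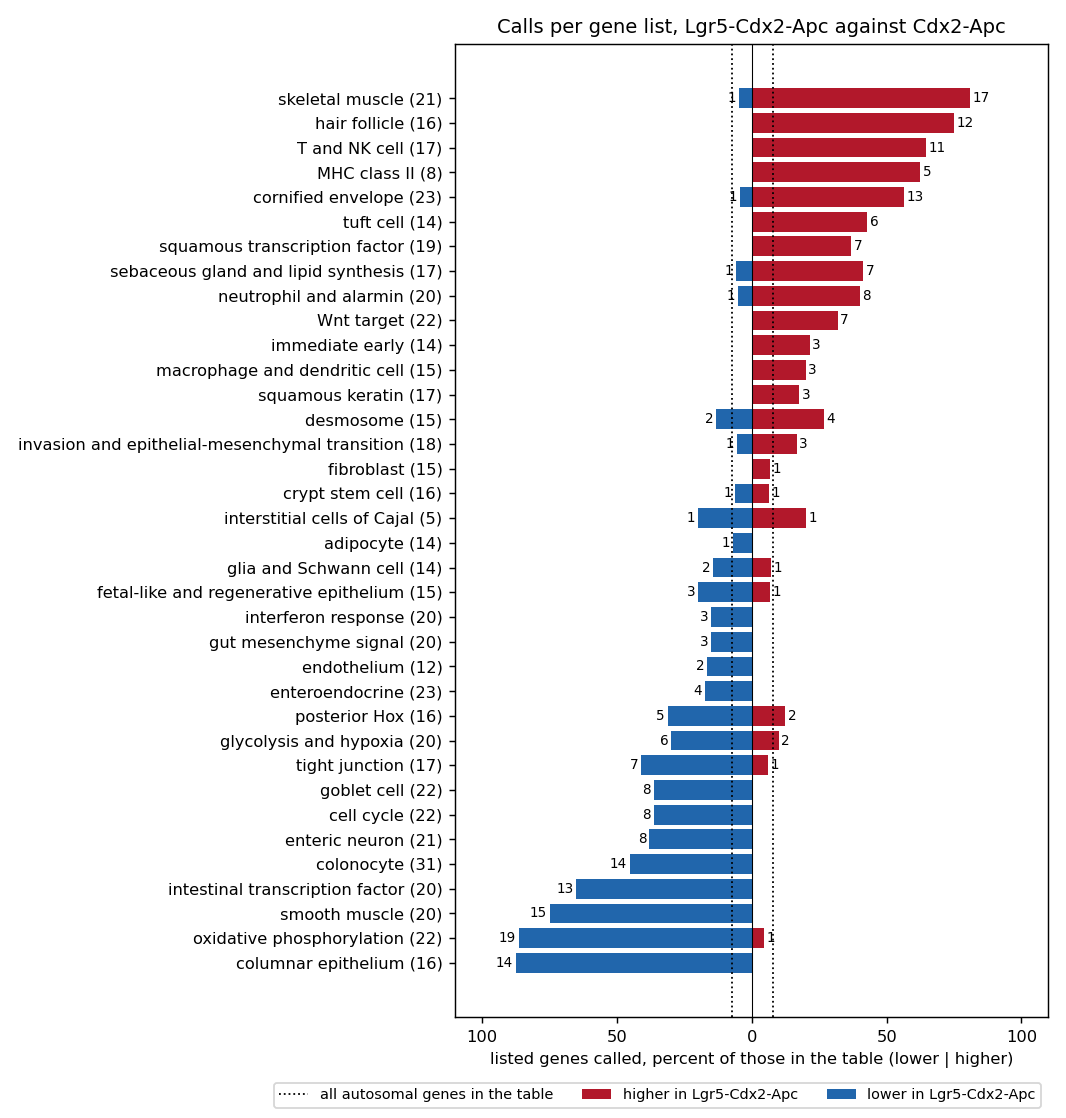
Percent of the listed genes in the table that were called higher (right) and lower (left) in the both-driver libraries, for lists with at least 5 genes past the filter (genes in the table in brackets), with the number called on each bar and dotted lines at the percentages over all 26111 autosomal genes in the table (7.71% higher, 7.4% lower). Smooth muscle (15 of 20), columnar epithelium (14 of 16) and oxidative phosphorylation (19 of 22) lead the lower side; skeletal muscle (17 of 21) and hair follicle (12 of 16) lead the higher side.

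T cell genes were higher in both both-driver libraries. Of 17 T and NK cell genes 11 were called higher and none lower, 10 of the list having passed the filter only through the both-driver libraries. Cd3e, a signalling chain of the T cell receptor, was at 11.1 and 11.3 FPKM against 0.152, 0.617 and 0.521 FPKM (log2 difference 3.11, SE 0.26, adjusted p = 0.000221). Trdc, the constant region of the delta receptor chain, was at 3.49 and 4.61 FPKM against 0, 0.0589 and 0 FPKM (log2 difference 2.30, SE 0.17, adjusted p = 0.000212), whereas Trac, that of the alpha chain, was at 0 and 0.962 FPKM against 0, 0 and 0 FPKM and did not pass the filter. Cd7 and Nkg7, proteins of T and NK cells, were at 10.8 and 8.5 FPKM against 0.232, 0.236 and 0.276 FPKM and at 7.18 and 9.48 FPKM against 0, 0.273 and 0.205 FPKM (adjusted p = 0.000233 and 0.000276). Cd4, Cd8a and the granzymes Gzma and Gzmb stayed below 1 FPKM in all 5 libraries. Cd3e did not exceed 1.03 FPKM in the 4 Lgr5-Apc libraries, those rich in squamous transcripts included. When both-driver library 1 or 2 was left out, 8 of the 11 called genes did not reach 1 FPKM in 2 libraries and were not tested, and of the other 3, 3 and 2 were called. The count was 11, 11 and 11 without Cdx2-Apc library 1, 2 or 3.

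Antigen presentation genes were higher as well. Of 8 MHC class II genes 5 were called higher and none lower, with a median log2 difference of 2.17. H2-DMa, which loads peptides onto class II molecules, was at 16.2 and 16.2 FPKM against 2.22, 2.61 and 2.11 FPKM (log2 difference 2.38, SE 0.35, adjusted p = 0.00283), and Ciita, the coactivator of these genes, at 4.63 and 3.62 FPKM against 1.01, 0.776 and 0.531 FPKM (log2 difference 1.53, SE 0.24, adjusted p = 0.00388). Cd207 (langerin), the lectin of Langerhans cells in the epidermis, was at 16.4 and 20.1 FPKM against 0.0652, 0.223 and 0.164 FPKM (log2 difference 4.06, SE 0.51, adjusted p = 0.00144), and Itgax, an integrin of dendritic cells, at 4.12 and 4.3 FPKM against 1.29, 1.31 and 1.03 FPKM (log2 difference 1.24, SE 0.31, adjusted p = 0.0202). The macrophage genes C1qa, C1qb and Lyz2 overlapped between the groups, and 3 of 15 macrophage and dendritic cell genes were called. When either both-driver library was left out (1, then 2), 2 and 0 class II genes and 1 and 1 macrophage and dendritic cell genes were called higher.

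Among mast cell genes, Mcpt4, a chymase of connective tissue mast cells, was at 3.19 and 9.44 FPKM against 0, 0 and 0.264 FPKM (log2 difference 2.61, SE 0.35, adjusted p = 0.0019), and Mcpt1 and Mcpt2, the chymases of mucosal mast cells, were listed at 0 in both both-driver libraries. Mcpt4 passed the filter only through the both-driver libraries, where it had to be high to be tested. Among 20 neutrophil and alarmin genes, 8 passed the filter only through the both-driver libraries, Il1a among them, and had to be high there to be tested. Of the 20 genes 8 were called higher and 1 lower. Defb6, a beta-defensin of skin, was at 479.9 and 1344 FPKM against 0, 0 and 7.61 FPKM (log2 difference 8.62, SE 2.64, adjusted p = 0.0404), and Il1a, an alarm cytokine of keratinocytes, at 7.07 and 6.13 FPKM against 0, 0.178 and 0.127 FPKM (log2 difference 2.79, SE 0.60, adjusted p = 0.0123). Pglyrp1, a peptidoglycan-binding protein, was lower at 21.4 and 1.16 FPKM against 146, 176 and 189.8 FPKM (log2 difference -4.62, SE 0.90, adjusted p = 0.00925). No alarmin gene was called higher without both-driver library 1 or without library 2, where 2 of the 8 were not tested. Of 20 interferon response genes 3 were lower and none higher (1 and 0 lower without both-driver library 1 or 2), and of 12 B and plasma cell genes none was called by limma, with 1 at an unadjusted p below 0.05; Igha was at 0.734 and 0.78 FPKM against 57.2, 8.54 and 6.21 FPKM.

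**Figure D5:**
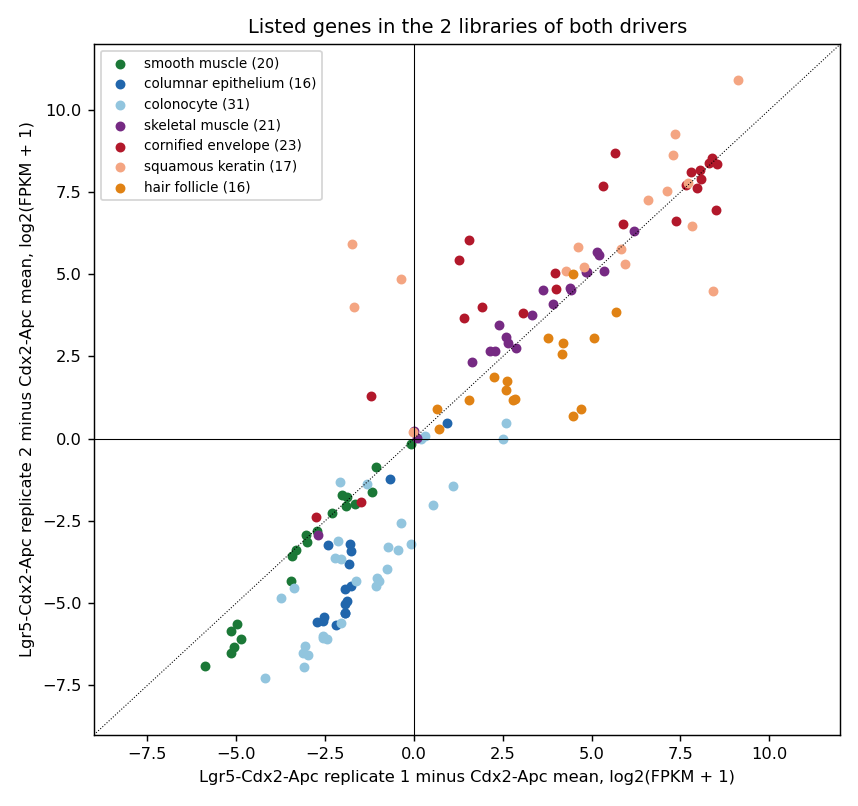
Each listed gene's log2(FPKM + 1) in both-driver replicate 1 (x axis) and replicate 2 (y axis) minus the Cdx2-Apc mean, 1 point a gene for 7 lists, with a dotted line where the replicates are equal. Most columnar and colonocyte genes lie below the line, further from the Cdx2-Apc mean in replicate 2, smooth and skeletal muscle genes lie near it, and Krt4 and Krt13 are among the squamous keratins at or below 0 in replicate 1 and above 0 in replicate 2.

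Several cell cycle genes were lower. Of 22 listed genes 8 were lower and none higher. Ccnb2, a cyclin of mitotic entry, was at 4.7 and 7.14 FPKM against 18.4, 20.2 and 19.7 FPKM (log2 difference -1.58, SE 0.25, adjusted p = 0.00422), and Birc5 (survivin), a subunit of the chromosomal passenger complex, at 6.03 and 8.22 FPKM against 17.2, 19.6 and 15.7 FPKM (log2 difference -1.20, SE 0.23, adjusted p = 0.00844). Plk1, Aurkb, Aurka, Cdk1 and Ccna2 were lower too, with log2 differences from -1.16 to -0.90, as was Tyms, the thymidylate synthase (-0.60). The replication licensing genes Mcm2 to Mcm7 and Pcna did not pass, with log2 differences from -0.10 to 0.45. Mki67 was at 13.8 and 22.6 FPKM against 27.7, 31.9 and 30.5 FPKM (adjusted p = 0.0729). Only 1 and 1 cell cycle genes were called lower without both-driver library 1 or 2, and 6, 3 and 3 without Cdx2-Apc library 1, 2 or 3.

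Most subunits of the respiratory chain were lower. Of 22 genes 19 were called lower, with a median log2 difference of -1.20. Cox5a, of complex IV, was at 156 and 142 FPKM against 424, 488 and 473 FPKM (log2 difference -1.63, SE 0.34, adjusted p = 0.0112). Sdha, of complex II, was at 60 and 53.7 FPKM against 138, 159 and 158 FPKM (log2 difference -1.40, SE 0.27, adjusted p = 0.00925). The both-driver libraries were close together for both genes. Cox6a2, the isoform of striated muscle, was higher at 3.48 and 4.18 FPKM against 0.387, 0.196 and 0.146 FPKM (log2 difference 1.96, SE 0.51, adjusted p = 0.0226), and Cox7a1, another muscle-type isoform, was lower at 27.9 and 8.66 FPKM against 156, 178 and 167 FPKM (log2 difference -3.33, SE 0.56, adjusted p = 0.00555). After removal of both-driver library 1 or 2, 6 and 0 were called lower, and without Cdx2-Apc library 1, 2 or 3, 17, 15 and 14. Glycolysis genes were mixed, with 6 lower and 2 higher of 20: Gpi1 and Pfkl fell (log2 differences -0.88 and -1.01), and the muscle isoform Pgam2 and Ldhb rose (3.60 and 1.99). Of the glycolysis genes 1 and 0 were called lower, and 0 and 0 higher, without both-driver library 1 or 2.

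Genes linked to regeneration, invasion and stroma gave few calls. Of 15 genes of fetal-like and regenerating gut epithelium 1, Krt23, was higher and 3 were lower. Areg, an epidermal growth factor receptor ligand, was at 3.51 and 3.41 FPKM against 7.06, 13.2 and 10.3 FPKM (log2 difference -1.29, SE 0.35, adjusted p = 0.0264), and Ly6a at 43.9 and 63.7 FPKM against 124, 133 and 133 FPKM (adjusted p = 0.142). The study's title concerns metastasis of colorectal adenocarcinoma, and of 18 genes of invasion and epithelial-mesenchymal transition 3 were higher and 1 lower. Mmp9, a gelatinase that cuts basement membrane collagen, was at 9.35 and 5.56 FPKM against 0.292, 0.236 and 0.331 FPKM (log2 difference 2.68, SE 0.26, adjusted p = 0.000353), and Snai2, a repressor of E-cadherin that basal squamous cells also express, at 12.4 and 17.8 FPKM against 0.875, 0.689 and 2.22 FPKM (log2 difference 2.87, SE 0.92, adjusted p = 0.0458). Cdh1, E-cadherin, was at 137 and 103 FPKM against 196, 265 and 283 FPKM (log2 difference -1.04, SE 0.28, adjusted p = 0.0265). Vim, Zeb1, Zeb2, Twist1 and Mmp14 did not pass, with adjusted p from 0.0615 to 0.457. Mmp9 was at 0.391 FPKM or less in all Lgr5-Apc libraries. It reached 1 FPKM only in the both-driver libraries, where it had to be high to be tested. No gene of the regeneration or invasion list was called in either direction without both-driver library 1 or without library 2, and Mmp9 was then not tested. Of the invasion genes 1, 1 and 1 were called higher without Cdx2-Apc library 1, 2 or 3. The call of Snai2 was lost in 14 of 26 settings, among them a pseudocount of 0.5 FPKM.

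Of 14 immediate early genes 3 were higher, Egr1, Egr2 and Dusp1, with log2 differences of 2.01, 4.17 and 0.99, and Fos and Jun did not pass. Of 15 fibroblast genes only Thy1 was called, which T cells also express, at 31.8 and 45.5 FPKM against 10.2, 4.82 and 7.1 FPKM (log2 difference 2.27, SE 0.34, adjusted p = 0.00311). Col1a1 and Col3a1 did not pass, at 170.1 and 199.8 against 91, 48.3 and 79.5 FPKM and 69.3 and 116 against 147, 70.2 and 110.1 FPKM. In the gut mesenchyme list 3 of 20 genes were lower, among them Foxf1, a hedgehog-responsive factor of gut muscle and stroma, at 0.182 and 0.12 FPKM against 11.6, 5.05 and 6.46 FPKM (log2 difference -2.85, SE 0.55, adjusted p = 0.00882). Of 12 endothelial genes 2 were lower, Lyve1 and Flt4, both of lymphatic vessels (log2 differences -2.39 and -1.74). Leaving out either both-driver library removed all calls of the immediate early and endothelial lists, and 1 and 0 gut mesenchyme genes were called lower without library 1 or 2. Svs4 and Svs5, genes of the seminal vesicle, were at 4.68 and 8.08 FPKM in Cdx2-Apc library 3, and otherwise at 0 in the 5 libraries except for 0.251 FPKM of Svs4 in Cdx2-Apc library 2. Spink1 was the 1 gene of this male accessory gland list to be called, lower at 44.4 and 1.19 FPKM against 195, 214 and 256 FPKM (log2 difference -4.47, SE 1.16, adjusted p = 0.023). Most of the list's sum in the 5 libraries was Spink1. The list summed to 158, 94.6, 222 and 24.7 FPKM in the Lgr5-Apc libraries and to 118, 223 and 352 FPKM in the control libraries. Those libraries hold Xist at a high level, and the part of sex in the Spink1 call was not tested.

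Beyond the lists, the genes with the largest decreases included secreted products of the distal colon. Mptx1, a mucosal pentraxin, was at 49.5 and 2.5 FPKM against 893, 1533 and 1099 FPKM (log2 difference -6.43, SE 1.37, adjusted p = 0.012), and Reg4, a lectin of deep crypt secretory cells, at 10.8 and 1.81 FPKM against 182, 330 and 234 FPKM (log2 difference -5.39, SE 0.86, adjusted p = 0.00422). B3gnt7, a glycosyltransferase of sulfated mucin glycans, was at 20.4 and 1.65 FPKM against 273, 378 and 354 FPKM (log2 difference -5.47, SE 1.26, adjusted p = 0.0155). Library 2 was the lower of the pair for each. The smallest p values among lower genes included those of detoxifying enzymes: Gpx2, the gastrointestinal glutathione peroxidase, was at 18.6 and 10.1 FPKM against 175, 211 and 201 FPKM (log2 difference -3.73, SE 0.32, adjusted p = 0.000237), Gstm1, a glutathione transferase, at 39.3 and 44.1 FPKM against 166, 147 and 131 FPKM (log2 difference -1.80, SE 0.18, adjusted p = 0.000438), and Tst, the mitochondrial thiosulfate sulfurtransferase, at 29.4 and 23.6 FPKM against 113, 136 and 123 FPKM (log2 difference -2.19, SE 0.21, adjusted p = 0.000392). For Gstm1 and Tst the both-driver libraries lay close together. Among the largest increases beside the keratin and envelope genes were Asprv1, a protease that processes filaggrin, at 399 and 768 FPKM against 0.387, 0.811 and 5.03 FPKM (log2 difference 7.81, SE 2.30, adjusted p = 0.0353), and Crct1 at 674 and 647 FPKM against 0, 0.662 and 10 FPKM (log2 difference 7.97, SE 2.50, adjusted p = 0.0434). Krtap19-5, a keratin-associated protein of the hair shaft, had the smallest p: it was at 5.75 and 5.76 FPKM with both drivers and listed at 0 in the other 10 libraries (adjusted p = 2.64e-05). Car6, a secreted carbonic anhydrase, was at 6.22 and 5.39 FPKM against 0, 0.0327 and 0.141 FPKM (log2 difference 2.69, SE 0.21, adjusted p = 0.000212), and Ctsw, a protease of cytotoxic lymphocytes, at 3.8 and 4.49 FPKM against 0, 0.203 and 0.125 FPKM (log2 difference 2.21, SE 0.17, adjusted p = 0.000212). Krtap19-5, Car6 and Ctsw reached 1 FPKM only in the both-driver libraries, where they had to be high to be tested.

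Whether the both-driver minus Cdx2-Apc difference equalled the Lgr5-Apc minus control difference was tested as a departure from additivity. It is the former difference less the latter, in the same limma fit. The control genotype is unclear, as stated at the start. Controls that are WT would lack the floxed Apc allele, so the latter difference would hold that allele as well as the Lgr5 driver. Controls of the genotype CDX2creER;APC flox would carry the Cdx2 driver. A departure cannot be put down to the drivers alone. Of the 15549 genes 255 departed (1.64%), 194 in the positive direction (1.25%) and 61 in the negative (0.392%), and 3459 had an unadjusted p below 0.05. Of the 194 positive genes 134 reached 1 FPKM only in the 2 both-driver libraries, where they had to be high to be tested. The Lgr5-Apc and control libraries had Xist at 61.1 to 162.6 FPKM and Ddx3y at 1.815 FPKM or less, like the both-driver and unlike the Cdx2-Apc libraries. The departure therefore holds the whole difference between the groups in these sex-linked genes, and a departure that goes with sex cannot be told apart from one that goes with the drivers. T cell genes were among those that departed. The departure of Cd3e was 2.78 in log2 units (SE 0.34, adjusted p = 0.00398), with 0.197, 1.03, 0.872 and 0.874 FPKM in the 4 Lgr5-Apc libraries and 0.249, 0.312 and 0.524 FPKM in the 3 controls. Krt71 departed by 4.56 (SE 0.59, adjusted p = 0.00588) and Il12rb2, a subunit of the interleukin-12 receptor, by 4.04 (adjusted p = 0.0375).

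In the negative direction Actg2 departed by -5.15 (SE 0.90, adjusted p = 0.0236), with 742, 145, 552 and 204 FPKM in Lgr5-Apc and 741, 723 and 921 FPKM in control libraries. Car2 departed by -3.58 (SE 0.54, adjusted p = 0.0142), with 353, 173, 328 and 354 and 332, 516 and 622 FPKM. Cd177, a surface glycoprotein, departed by -3.80 (adjusted p = 0.0129), at 1.59 and 0.186 FPKM with both drivers, 15.8, 22.4 and 23.6 FPKM in Cdx2-Apc and 30.7, 10.8, 21.9 and 29.8 FPKM in Lgr5-Apc. The levels of these 3 genes in Lgr5-Apc and control libraries were all above those of the both-driver libraries. Lor and Acta1, which were high in Lgr5-Apc library 2 as well, did not pass this test (adjusted p = 0.474 and 0.174). The number of departing genes varied widely with the libraries used. Without both-driver library 1 there were 0 in either direction, with library 2 left out 11 positive and 1 negative, and without Cdx2-Apc library 1, 2 or 3 there were 70, 55 or 51 positive and 8, 6 or 8 negative. Without Lgr5-Apc library 2, which is rich in squamous transcripts, there were 1087 positive and 1228 negative. Without control library 1, 2 or 3 there were 137, 69 or 105 positive and 20, 9 or 65 negative, and without Lgr5-Apc library 1 or 3 there were 99 or 113 positive and 31 or 18 negative.

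Across the RefSeq table, 10268 of the 15549 genes had a promoter window, as did 1331 of those higher and 1330 of those lower. The AP-1 motif was in 9.02% of windows of higher genes, 6.62% of those of lower genes, 5.68% of all genes compared and 7.93% of all promoters. HNF4 motifs were in 0.751% of higher, 1.2% of lower and 0.818% of all genes compared, and CDX motifs in 5.41%, 4.29% and 4.6%. The MEF2 motif was in 3.16% of higher and 2.03% of lower genes and the CArG box in 1.28% and 2.03%, against 1.8% and 1.31% of all genes compared. These shares describe letters in short windows and were not tested.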

How the data were processed

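RNA from mouse rectum was prepared with a column kit and DNase and made into strand-specific libraries, as the labels' protocols describe. The authors deposited 1 table of FPKM values for 12 libraries, and STAR, Cufflinks and Cuffdiff with build mm10 are named in the submitters' processing notes without versions. Of the table's 27831 lines, 25 carry date names and were kept without a gene name or position, and for 46 symbols repeated on 94 lines only the most abundant line was used (date names apart), leaving 27785 genes. FPKM carries no depth, so counting error could not be given.

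Values were taken as log2(FPKM + 1). Genes at 1 FPKM or more in at least 2 libraries (17360) were fitted in limma 3.58.1 (R 4.3.3) with 4 groups sharing 1 spread per gene, and adjusted p-values (Benjamini-Hochberg) run over all of them. A fold on this scale understates the change of low genes. The comparison keeps 15549 autosomal genes, with 488 on X, Y or the mitochondrial genome and 193 without a position set aside.

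The members and the 40 gene lists (668 genes, 663 in the table) were chosen with earlier results of these data known. Median log2 differences of lists are over the genes in the table, where the median of all 26111 autosomal genes was 0.000. The naming rule took the 15 largest called changes in each direction (group mean of 5 FPKM or more, no overlap), the 6 smallest p values in each direction, the 5 largest departures from additivity in each direction, up to 4 genes with the smallest p of a list, and Apc, Lgr5 and Cdx2. It skipped gene models without a name, short RNAs, and antibody or T cell receptor segments. Other genes named were chosen after their values were seen. Some genes that the rule names are not reported here. Alternatives were 26 settings. The fit was tested on simulated data.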

Additional observations from a re-analysis of the deposited data

Results flagged for a closer look

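The results here were picked out because the difference between the both-driver and Cdx2-Apc libraries was not the same as the difference between the Lgr5-Apc and control libraries. That inequality was tested by the departure-from-additivity contrast in limma, and 255 of 15549 genes passed. Values are departures on the log2(FPKM + 1) scale, and each has an adjusted p below the threshold. The Cdx2-Apc libraries alone have little Xist and hold Ddx3y at a high level, so a departure that goes with sex cannot be told apart from one that goes with the drivers. Of the 194 positive genes 134 reached 1 FPKM only in the both-driver libraries, where they had to be high to be tested.

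Hair and skin genes departed upward: Krt71 by 4.56, Krtap19-4 by 4.03, Krt24 by 4.00, Tchh by 3.95, Krtap19-2 by 3.71, Krt27 by 3.46, Krt25 by 3.32, Krtap19-5 by 2.76, Tchhl1 by 2.04 and Padi3 by 1.38; all of these but Tchh are among those 134. T cell genes and genes of other immune cells did so too. Cd3g departed by 3.27, Cd7 by 3.00, Cd3e by 2.78, Thy1 by 2.25, Trdc by 2.16 and Ctsw by 2.01, of which Cd3g, Trdc and Ctsw are among them. Il12rb2 departed by 4.04, Cd207 by 3.42, Mmp9 by 2.76, Mcpt4 by 2.60, H2-DMa by 2.43, Alox5 by 1.86, Ciita by 1.59, Cxcl2 by 1.23 and Il1b by 1.02. Car6 and Cyp4f37 departed by 2.43 and 2.40. Mmp9, Mcpt4, Cxcl2, Il1b, Car6 and Cyp4f37 belong to the 134 too.

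Smooth muscle genes departed downward: Actg2 by -5.15, Cnn1 by -4.34, Myl9 by -4.23 and Acta2 by -4.19. Among genes of the epithelium Cd177 departed by -3.80, Car2 by -3.58, Gpx2 by -3.38, Foxa1 by -2.36 and Klf5 by -1.39. Enzyme genes were Tst at -2.27, Gstm2-ps1 at -1.66, Gstm1 at -1.39 and Gpi1 at -1.27.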

How the results depend on the processing

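The groups of every called gene did not overlap, so most settings, leaving out a library among them, could not change its sign. Only median-of-ratios scaling, quantile normalization, removal of short RNAs and the replicate block could have done so. None of the 168 called genes chosen by the naming rule changed sign in a setting that tested it. Of these, 110 were tested in all 26 settings and 9 of the 110 were called in all; 20 others were called in each setting that tested them. Genes that did not pass could change sign: Muc2 was at 0.29 without both-driver library 2 and Sct at -0.67 without library 1 (-1.28 and 0.36 as reported). Leaving out both-driver library 1 or 2 removed 81 or 128 of the 168 calls and left 21 genes untested each time, leaving out Cdx2-Apc library 1, 2 or 3 removed 45, 71 or 50, and a tested minimum log2 difference of 1 removed 135. The causes were not tested.

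The counts of higher and lower genes (2013 and 1932) were 3145 and 2844 in a fit on the 5 libraries, 3313 and 3232 with library quality weights, 70 and 18 with a minimum log2 difference of 1, 961 and 1642 at a mean of at least 5 FPKM, and 3020 and 1498 without short and ribosomal RNAs. Leaving out 1 library gave 56 to 2667 higher and 45 to 2496 lower. Higher calls made up 51.0% as reported, 66.8% without short RNAs, 36.9% at 5 FPKM, 79.5% with the minimum difference and 27.5% without both-driver library 1. Without Lgr5-Apc libraries 2 and 3, an alternative chosen after seeing the data, 2853 and 2447 were called.

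Departures from additivity (194 positive, 61 negative) were 4 and 3 with a pseudocount of 0.1, 116 positive with 0.5, 0 and 3 at 5 FPKM, 120 positive with quantile normalization, 304 and 21 without short RNAs, 959 and 1137 with weights, and 1703 and 1302 without Lgr5-Apc libraries 2 and 3. Leaving out 1 library gave 0 to 1087 positive and 0 to 1228 negative.

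With the replicate number as a block, 1720 genes were higher and 2126 lower, with 39 positive and 13 negative departures. The numbers do not pair the samples by their deviations: over 15 same-numbered pairs the median correlation was -0.02 (range -0.301 to 0.422), and 2 of the 5 libraries lay closest to their own number. Depth is unknown, so genes near 1 FPKM have an unknown counting error.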

Other observations

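Replication-dependent histone genes formed a group that the lists did not hold and that was chosen after their values were seen. Of 59 histone genes among those compared 31 were called lower and none higher (background 12.4% lower), with a median log2 difference of -0.98. Both both-driver libraries lay below all Cdx2-Apc libraries for 51 of them, as they did for 31% of all genes compared. Their summed level was 2886 and 3327 FPKM with both drivers and 5998, 5966 and 6951 FPKM in Cdx2-Apc. Hist1h2bl, an H2B gene, was at 15.1 and 11.9 FPKM against 38.9, 49.0 and 53.5 FPKM (log2 difference -1.73, SE 0.23, adjusted p = 0.00176). Hist1h1c, a linker histone, was at 161.6 and 118.3 FPKM against 291.4, 426.7 and 362.3 FPKM (log2 difference -1.36, SE 0.24, adjusted p = 0.00626). Of the 59 genes 47 lie on chromosome 13, with starts between 21715763 and 23763666 (mm10), and 29 of these were lower. Without both-driver library 1 or 2 the count of lower histone genes was 4 or 1, and without Cdx2-Apc library 1, 2 or 3 it was 20, 13 or 13; the fit on the 5 libraries gave 47. 

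A few stretches of the genome held many called genes, though a small share of all calls. Of 1989 windows of 1 Mb that hold a compared gene, 5 held at least 10 genes called higher and 2 held at least 10 called lower; these too were chosen after the values were seen and were not tested. The 5 windows hold 74 of the 2013 higher genes (3.68%) and the 2 windows 31 of the 1932 lower genes (1.6%), and over all genes compared 12.9% were higher and 12.4% lower. On chromosome 3, from 92000001 to 93000000, 22 of 35 genes were higher, among them Lor, Ivl and the Lce1 genes. On chromosome 11, from 99000001 to 100000000, the type I keratin and keratin-associated protein genes gave 21 of 28 higher. On chromosome 16, from 89000001 to 90000000, 11 of 11 were higher, most of them Krtap genes. On chromosome 10, from 77000001 to 78000000, 10 of 19 were higher, and on chromosome 17, from 34000001 to 35000000, 10 of 49 (20.4%). The lower windows were 23000001 to 24000000 of chromosome 13, with 21 of 35, and 115000001 to 116000000 of chromosome 11, with 10 of 32. Of 54 Krtap genes in the table, which encode proteins that bind hair keratins, 31 passed the filter, each only through the both-driver libraries, so their calls could not have gone the other way.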
